A study of Mus musculus with 12 samples.

Results

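Collagens are the structural proteins of the extracellular matrix that surrounds adipocytes, vessels and stromal cells. The collagen genes were taken as all genes whose symbol has the form Col, a type number, the letter a and a chain number, provided that at least 1 of the 2 deposited tables had reads for the gene. This rule gave 44 of the 27179 genes listed for each tissue. They were sorted by textbook knowledge into 8 classes: 11 fibrillar, 6 basement membrane, 3 network-forming short chain, 6 beaded filament, 9 FACIT (chains with interrupted helices that sit on the surface of fibrils), 2 multiplexin, 4 transmembrane, and 3 anchoring and other collagens.

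RNA came from inguinal white adipose tissue (iWAT), a subcutaneous depot, and from epididymal white adipose tissue (eWAT), a visceral depot. The donors were adult C57/BL6 control mice, that is mice without the intestinal Hnf4a deletion of the mutants studied elsewhere in that work. All of them had been switched to a high-fat diet (HFD) for 2 weeks after 10 days of chow with 3 subcutaneous injections. On the HFD they received 5 injections, either of (D-Ala2)GIP[Lys37PAL], a GIP analog, at 2 pmol/kg or of saline, and in the GIP analog mice the last of the chow injections was already the analog. The labels give 4 groups of 3 samples, which are iWAT GIP, iWAT saline, eWAT GIP and eWAT saline. PolyA RNA libraries were sequenced, and each table holds 1 average per gene over its 6 libraries, in log2 CPM, the base-2 logarithm of read counts scaled to a common library size.

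Those averages are the only values used below. They pool GIP analog and saline samples, so the response to the GIP analog is not analysed here, and no value per sample, no standard deviation and no sequencing depth stands behind a level. The comparison that could be made was iWAT against eWAT, between 2 tables that the authors normalized separately. It has no replicate error and no test, and each depot difference is a description of these averages. Fewer cells of a type and less RNA per cell cannot be told apart in such bulk tissue.

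A collagen molecule is a triple helix of 3 chains, each built on the Gly-X-Y repeat, in which glycine recurs at a fixed spacing. Fibrillar collagens assemble into the fibers that give tissue its tensile strength, type IV collagens form the sheet of the basement membrane, which in fat wraps each adipocyte and each vessel, and type VI collagen forms beaded filaments between them. Fat is rich in type VI collagen, and the depot-specific matrix is often studied in obesity. In the longest open reading frame of each gene (GENCODE vM21, build GRCm38), the longest uninterrupted run of Gly-X-Y triplets was 344 in Col3a1, 338 in Col1a1 and 339 in Col1a2. The runs were shorter and interrupted in type IV collagen, from 39 triplets in Col4a3 to 66 in Col4a2. Among fibrillar chains, Col24a1 with 216 and Col27a1 with 217 triplets had the shorter helices.

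Promoter sequence is shown for 5 genes on which the depot pattern turned: the paired genes Col4a1 and Col4a2, the abundant fibrillar chains Col1a2 and Col3a1, and Col6a5, which had the widest depot difference. Each is a RefSeq window of GRCm38.p6 with 250 bases before and 50 bases after a start of the gene in RefSeq, written 5′ to 3′ on the strand of the gene. Col4a1 and Col4a2 lie head to head on chromosome 8, and their annotated starts in GENCODE vM21 are 21 bp apart, so the Col4a1 window (chr8:11312777-11313076, minus strand) and the Col4a2 window (chr8:11312555-11312854, plus strand) overlap by 78 bases. Capitals mark those shared bases, which read as reverse complements of each other.
Col4a1: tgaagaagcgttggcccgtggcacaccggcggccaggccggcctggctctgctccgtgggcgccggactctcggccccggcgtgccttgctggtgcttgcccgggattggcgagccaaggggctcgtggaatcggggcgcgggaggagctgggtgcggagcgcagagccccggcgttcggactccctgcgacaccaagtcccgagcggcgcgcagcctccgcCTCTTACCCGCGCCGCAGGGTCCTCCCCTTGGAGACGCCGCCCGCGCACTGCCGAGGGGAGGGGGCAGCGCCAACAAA
Col4a2: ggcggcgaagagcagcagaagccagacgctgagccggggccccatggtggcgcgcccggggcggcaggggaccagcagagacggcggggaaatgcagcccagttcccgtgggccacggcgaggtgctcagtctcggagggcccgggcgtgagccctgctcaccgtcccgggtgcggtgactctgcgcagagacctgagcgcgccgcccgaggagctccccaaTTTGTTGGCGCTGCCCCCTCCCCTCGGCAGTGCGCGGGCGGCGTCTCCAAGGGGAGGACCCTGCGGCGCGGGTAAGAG

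For the other genes capitals mark every match, on either strand, to 3 short motifs: CCAAT (the CCAAT box), TATAAA (the TATA box) and GGGCGG (the GC box). The letters of the 3 motifs do not overlap in any of these windows. The Col1a2 window (chr6:4505368-4505667, plus strand) held 2 CCAAT and 2 GGGCGG matches and no TATAAA. This window does not include the start of the gene in GENCODE vM21, which is at chr6:4504814. The Col3a1 window (chr1:45311288-45311587, plus strand) held 1 TATAAA match, and the Col6a5 window (chr9:105960594-105960893, minus strand) held 1 GGGCGG match.
Col1a2: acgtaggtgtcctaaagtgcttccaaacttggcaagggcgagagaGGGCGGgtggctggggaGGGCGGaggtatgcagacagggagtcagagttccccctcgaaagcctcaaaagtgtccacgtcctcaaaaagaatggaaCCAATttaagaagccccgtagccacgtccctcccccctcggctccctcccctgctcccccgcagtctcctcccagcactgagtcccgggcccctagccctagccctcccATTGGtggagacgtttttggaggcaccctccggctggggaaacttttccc
Col3a1: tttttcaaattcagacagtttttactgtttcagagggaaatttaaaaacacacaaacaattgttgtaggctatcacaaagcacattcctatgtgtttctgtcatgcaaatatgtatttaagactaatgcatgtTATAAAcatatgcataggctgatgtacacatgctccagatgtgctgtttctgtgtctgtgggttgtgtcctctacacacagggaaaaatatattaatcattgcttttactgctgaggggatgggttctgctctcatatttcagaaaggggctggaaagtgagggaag
Col6a5: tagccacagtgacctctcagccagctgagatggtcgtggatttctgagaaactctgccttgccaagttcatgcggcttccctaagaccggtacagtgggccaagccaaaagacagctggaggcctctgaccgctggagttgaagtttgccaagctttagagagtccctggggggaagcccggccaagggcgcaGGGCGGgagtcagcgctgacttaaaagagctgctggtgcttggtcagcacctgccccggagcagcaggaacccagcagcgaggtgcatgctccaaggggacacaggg

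RefSeq windows were matched to 35 of the 44 collagen genes, 38 windows in all, out of 32851 windows of 300 bases for the genome. GGGCGG was present in 60.5% of the collagen windows and 35.7% of all windows. By gene, it was present for 22 of the 35 collagens. Windows can share bases: the 1 GGGCGG match of the Col4a1 window lies in the stretch shared with Col4a2 and counts in both. CCAAT was present in 34.2% of collagen windows and 37.4% of all windows, and TATAAA in 13.2% and 13.6%. A match is a description of letters and was not related to any measured level.

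Nearly all collagen genes had some reads in both depots, and their levels spread widely. Reads were listed for 43 collagen genes in iWAT and 42 in eWAT. The rule itself asked for reads in at least 1 depot, so these counts are high in part by selection. Of all 27179 genes, 6123 were at the table minimum in iWAT and 6814 in eWAT. Col9a1, a cartilage FACIT chain, was at the table minimum in iWAT, and Col11a1 and Col19a1 were at the minimum in eWAT. At an average of at least 1 CPM, 23 collagen genes remained in iWAT and 26 in eWAT. Col3a1, the chain of type III collagen in compliant tissues, was the first collagen of both depots, at 10.67 log2 CPM in iWAT and 10.14 in eWAT. The summed level of the 44 genes was nearly the same in the depots, 4127 CPM in iWAT and 4186 CPM in eWAT. The composition of that sum was not.

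**Figure D1:**
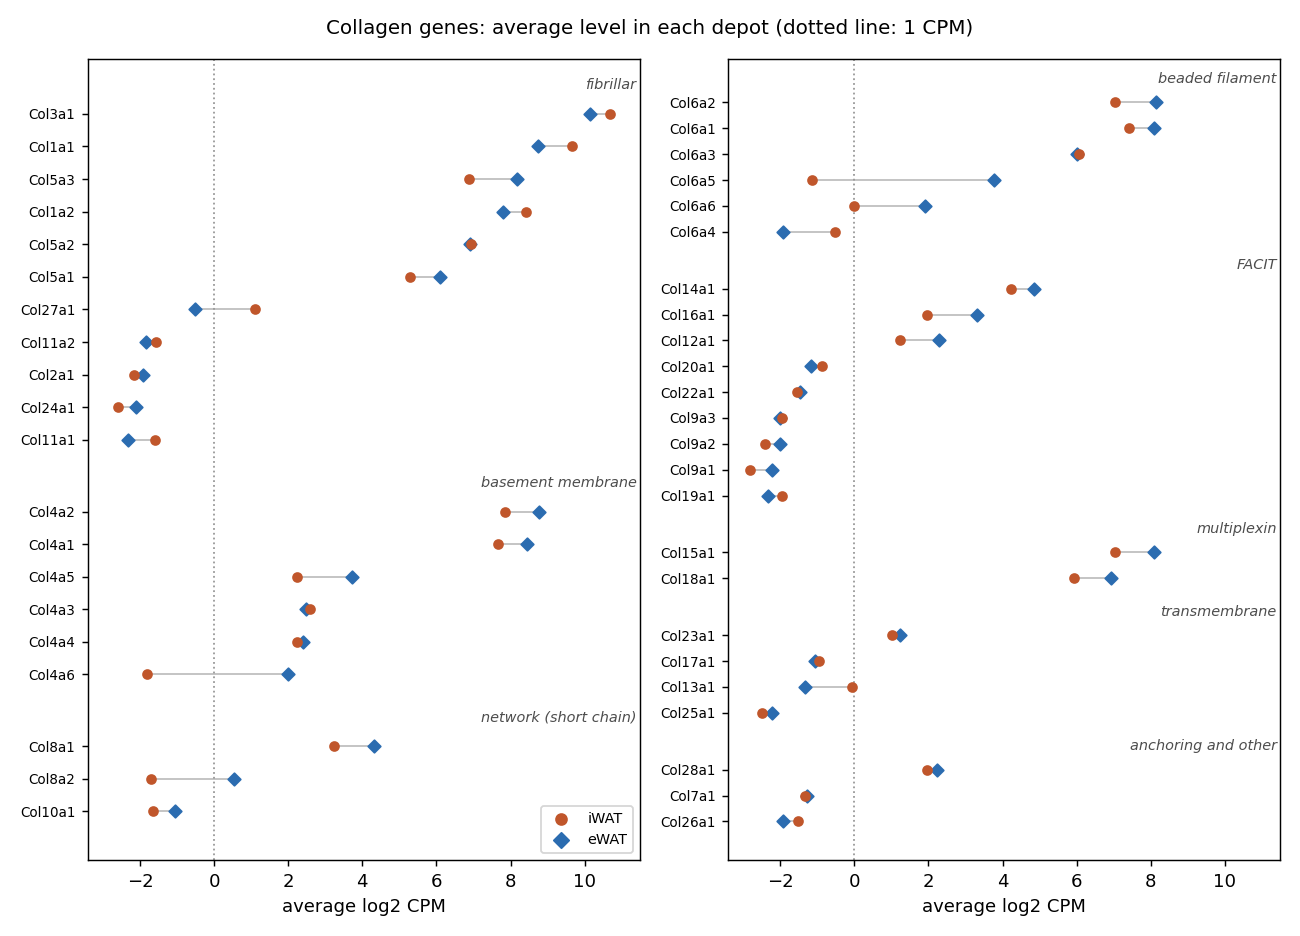
Average level of each collagen gene in log2 CPM (x axis) in iWAT (circles) and eWAT (diamonds), by class, with a dotted line at 1 CPM. Col3a1 was highest in both depots, and the widest gaps are those of Col6a5 (-1.15 in iWAT and 3.77 in eWAT) and Col4a6 (-1.82 and 2.00); each symbol is the authors' average over a table, so no error bar is drawn.

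Fibrillar chains made up 74.3% of the summed collagen CPM in iWAT and 54.0% in eWAT. Col1a1, Col1a2 and Col3a1 alone summed to 2785 CPM in iWAT and 1782 CPM in eWAT, or 67.5% and 42.6% of all collagen CPM. Basement membrane chains had the smaller share in iWAT, 10.9%, against 19.5% in eWAT. The same order held for beaded filament chains, with 9.02% in iWAT and 15.2% in eWAT, and for multiplexins, with 4.65% in iWAT and 9.47% in eWAT. FACIT chains made up 0.648% in iWAT and 1.08% in eWAT, and short chain network collagens 0.245% and 0.519%. Dividing each gene by its transcript length left the fibrillar share at 73.3% in iWAT and 52.1% in eWAT. Shares sum to the whole, so a larger share of 1 class lowers those of the others. In summed CPM the basement membrane class was lower in iWAT, at 451 CPM against 816 CPM in eWAT. The fibrillar class was higher, at 3067 CPM in iWAT and 2260 CPM in eWAT. CPM is itself relative to all reads of a library, so these sums are not absolute amounts.

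**Figure D2:**
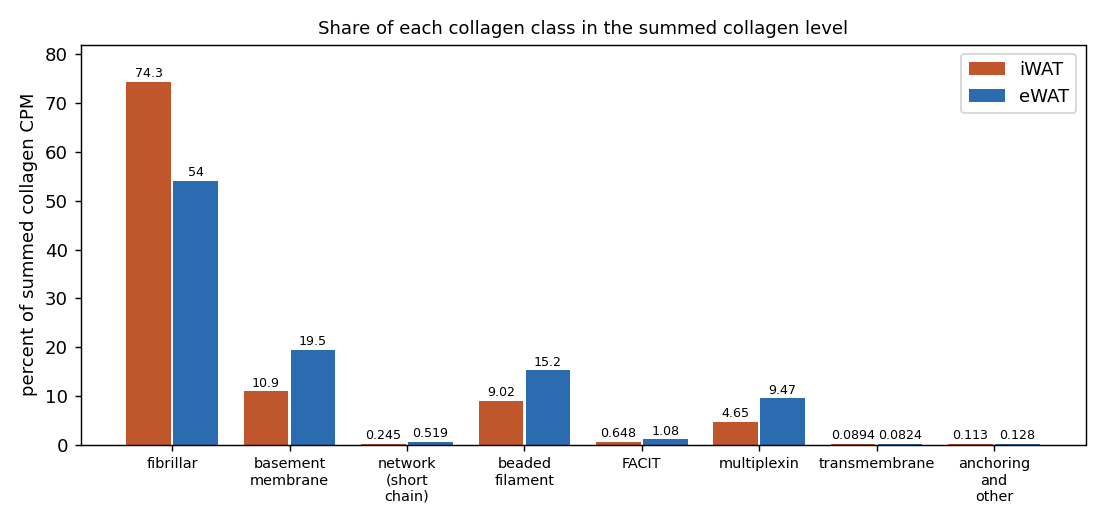
Share of each class in the summed collagen CPM (percent, y axis) in iWAT (left bars) and eWAT (right bars). The fibrillar bar is 74.3% in iWAT and 54.0% in eWAT, and the basement membrane, beaded filament and multiplexin bars are taller in eWAT; the values are averages of each table without error.

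Depot differences are given as iWAT minus eWAT in log2 CPM, for genes whose mean over both depots was at least 0 on that scale, that is 1 CPM. Among all 13750 such genes the median difference was 0.02, 5th to 95th percentile -0.86 to 1.11. Of these genes, 5.86% were more than 2-fold higher in iWAT and 3.69% more than 2-fold higher in eWAT. Of the 26 collagen genes that passed, 1 was more than 2-fold higher in iWAT (Col27a1) and 11 were more than 2-fold higher in eWAT. Their median difference was -0.80, with 7 genes above 0 and 19 below. A gene could pass this filter through its high depot alone. Among the 22 collagen genes at 1 CPM or more in both depots, 0 were more than 2-fold higher in iWAT and 8 in eWAT. The share of all genes was not computed under this stricter filter, so these counts cannot be set against 5.86% and 3.69%. The limit fell next to Col18a1, counted at 2.001-fold, and the next gene outside it was Col4a2 at 1.89-fold higher in eWAT.

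**Figure D3:**
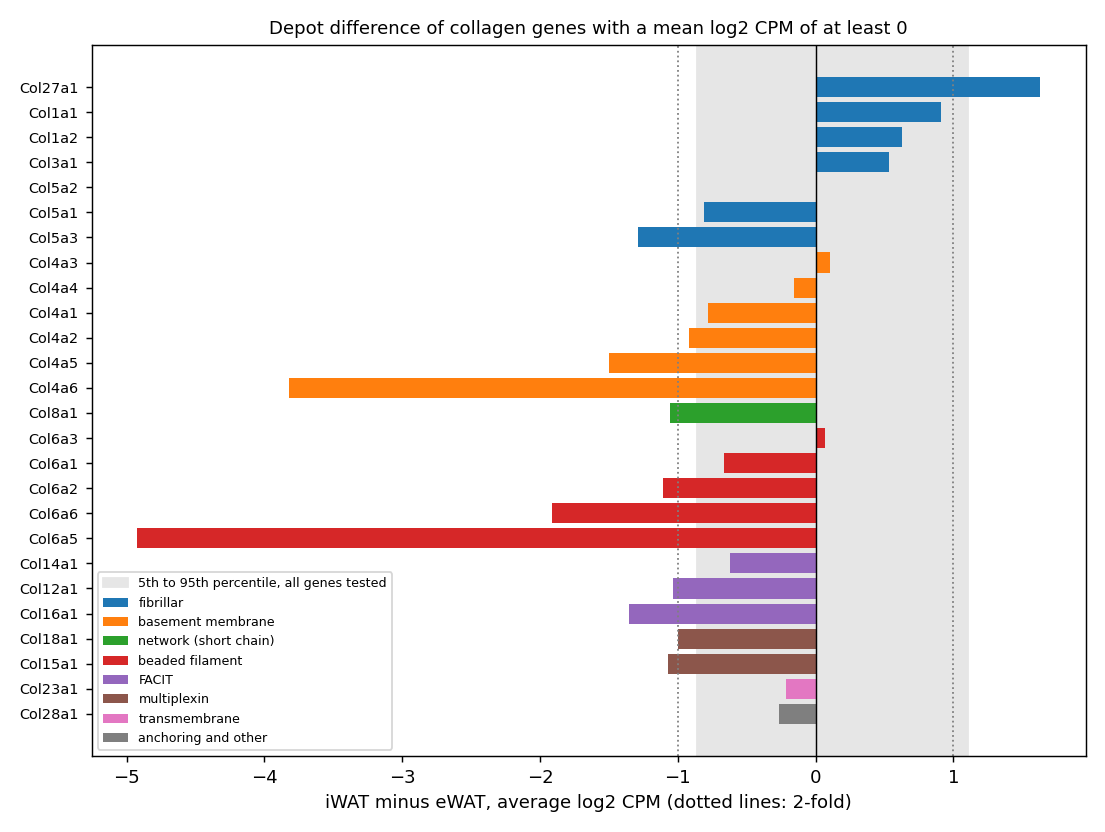
Depot difference (iWAT minus eWAT, average log2 CPM, x axis) of the 26 collagen genes with a mean of at least 0, colored by class, with the 5th to 95th percentile of all 13750 genes in gray and dotted lines at 2-fold. Col27a1, Col1a1, Col1a2 and Col3a1 extend to the right, and Col6a5 (-4.93) and Col4a6 (-3.82) reach farthest to the left; no error can be given for a bar.

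The fibrillar class was the one whose median lay on the iWAT side, 0.53 over 7 genes, or 0.27 over the 6 at 1 CPM or more in both depots, which leaves out Col27a1. The chains of the bulk fibers were all higher in iWAT. Col1a1 and Col1a2 encode the chains of type I collagen, the main fiber protein of connective tissue. Col1a1 was at 9.66 log2 CPM in iWAT and 8.74 in eWAT, a difference of 0.91, and Col1a2 was at 8.43 and 7.80, a difference of 0.63. For Col3a1 the difference was 0.53. None of these exceeded 2-fold, and 93.4% of all genes had a lower difference than Col1a1. Col27a1, a fibrillar chain known from cartilage, had 2.15 CPM in iWAT and 0.695 CPM in eWAT, a difference of 1.63 at a low level that fell under 1 CPM in eWAT.

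The type V chains, minor components that limit fibril diameter, did not share that direction. Col5a3, which is known to be expressed in fat and muscle, was at 6.88 log2 CPM in iWAT and 8.17 in eWAT, 2.44-fold higher in eWAT. Col5a1 was at 5.28 in iWAT and 6.09 in eWAT, a difference of -0.81. Col5a2 was at 6.93 in iWAT and 6.92 in eWAT, a difference of 0.01. Within type V, then, the chains ranged from near equality to more than 2-fold. The other fibrillar chains, Col2a1, Col11a1, Col11a2 and Col24a1, which include the main cartilage collagens, were between 0.165 and 0.335 CPM in iWAT and between 0.199 and 0.281 CPM in eWAT. At that level no depot difference is given, since the minimum itself differs between the tables (-2.82 log2 CPM in iWAT and -2.33 in eWAT).

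The basement membrane class had a median difference of -0.85 over 6 genes, with 5 of them lower in iWAT, or -0.78 over the 5 at 1 CPM or more in both depots, which leaves out Col4a6. Col4a1 and Col4a2 encode the ubiquitous type IV chains. Col4a1 was at 7.67 log2 CPM in iWAT and 8.45 in eWAT, and Col4a2 at 7.85 and 8.77. These neighbours, whose shared promoter bases are printed above, thus differed by -0.78 and -0.92. Col4a3 and Col4a4, the chains that kidney and lung basement membranes carry, were also paired, with starts 72 bp apart on chromosome 1. Col4a3 was at 2.60 log2 CPM in iWAT and 2.49 in eWAT, and Col4a4 at 2.23 and 2.39. Their differences were 0.11 and -0.16, small beside those of the other type IV genes.

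The last pair, Col4a5 and Col4a6 on the X chromosome, has starts 1309 bp apart. Here the neighbours stood far apart. Col4a5 had 4.69 CPM in iWAT and 13.3 CPM in eWAT, a difference of -1.50 in log2 CPM. Col4a6, found in epithelial and smooth muscle basement membranes, had 0.283 CPM in iWAT and 4.01 CPM in eWAT, a difference of -3.82. The Col4a6 level in iWAT was far under 1 CPM, and no error can be given for its fold.

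Of the short chain network collagens, Col8a1 was the highest, with 9.50 CPM in iWAT and 19.8 CPM in eWAT. Type VIII collagen forms the hexagonal lattice under vascular and corneal endothelium. Its partner Col8a2 had 0.307 CPM in iWAT and 1.45 CPM in eWAT, and Col10a1, the hypertrophic cartilage chain, 0.319 CPM and 0.477 CPM. Both of these missed the filter for a depot difference.

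Beaded filament collagens had a median difference of -1.11 over 5 genes, or -0.66 over the 3 at 1 CPM or more in both depots, which leaves out Col6a5 and Col6a6. Type VI collagen is built from Col6a1, Col6a2 and another chain, usually Col6a3. Col6a1 was at 7.42 log2 CPM in iWAT and 8.09 in eWAT, a difference of -0.66, and Col6a2 at 7.04 and 8.15, a difference of -1.11. Col6a3 was nearly level, with 67.0 CPM in iWAT and 64.0 CPM in eWAT. The alternatives to Col6a3, which lie in a row on chromosome 9, differed most. Col6a5 had 0.450 CPM in iWAT and 13.7 CPM in eWAT, a difference of -4.93. Its iWAT level was under 1 CPM, so it passed the filter through eWAT alone, and no error can be given for its fold. Col6a6 had 0.999 CPM in iWAT and 3.76 CPM in eWAT, a difference of -1.91. Their neighbour Col6a4 ran the other way at a lower level, with 0.696 CPM in iWAT and 0.265 CPM in eWAT, and missed the filter.

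FACIT collagens and multiplexins were lower in iWAT without exception among the genes that passed. Col14a1, which binds to the surface of type I fibrils, was at 4.23 log2 CPM in iWAT and 4.85 in eWAT, a difference of -0.62. Col16a1 was at 1.96 and 3.31, a difference of -1.35, and Col12a1 at 1.24 and 2.28, a difference of -1.03. Another 6 FACIT genes (Col9a1, Col9a2, Col9a3, Col19a1, Col20a1 and Col22a1) were under 1 CPM in both depots. The multiplexins are basement membrane zone proteins whose trimmed C-terminal ends are known as restin and endostatin. Col15a1 was at 7.03 log2 CPM in iWAT and 8.10 in eWAT, a difference of -1.07, and Col18a1 had 61.4 CPM in iWAT and 123 CPM in eWAT, 2.001-fold higher in eWAT.

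The remaining classes were low. Col23a1, a transmembrane collagen, had 2.03 CPM in iWAT and 2.36 CPM in eWAT, and Col28a1, which is known around peripheral nerve, 3.91 CPM and 4.70 CPM. Col13a1 had 0.961 CPM in iWAT and 0.395 CPM in eWAT. Col7a1, Col17a1, Col25a1 and Col26a1, among them the anchoring fibril and hemidesmosome collagens of skin, were all under 1 CPM in both depots.

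Ratios between chains of 1 depot do not depend on the scaling between the tables. They were taken per kilobase of the coding transcript, since a longer transcript yields more reads. Col1a1 was 2.12 times Col1a2 in iWAT and 1.74 times in eWAT. Type I collagen is known to contain more chains of Col1a1 than of Col1a2. These ratios rest on the length used, and with the union of all exons they became 4.44 in iWAT and 3.65 in eWAT. Col3a1 was 2.16 times Col1a1 in iWAT and 2.81 times in eWAT, or 1.35 and 1.76 times with the union of exons. Col4a1 and Col4a2 were close to equal in both depots, at a ratio of 0.859 in iWAT and 0.780 in eWAT. Col5a3 exceeded Col5a1 4.16 times in iWAT and 5.79 times in eWAT. Within type VI collagen, Col6a1 over Col6a2 was 1.26 in iWAT and 0.925 in eWAT, and Col6a3 over Col6a1 was 0.158 in iWAT and 0.0955 in eWAT. The type VI ratio passed 1 between depots, although with the union of exons Col6a1 was the larger in both (2.48 in iWAT and 1.83 in eWAT). Col4a5 over Col4a6 was 16.8 in iWAT and 3.37 in eWAT, and Col8a1 over Col8a2 was 26.3 and 11.6, with Col4a6 and Col8a2 under 1 CPM in iWAT.

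**Figure D4:**
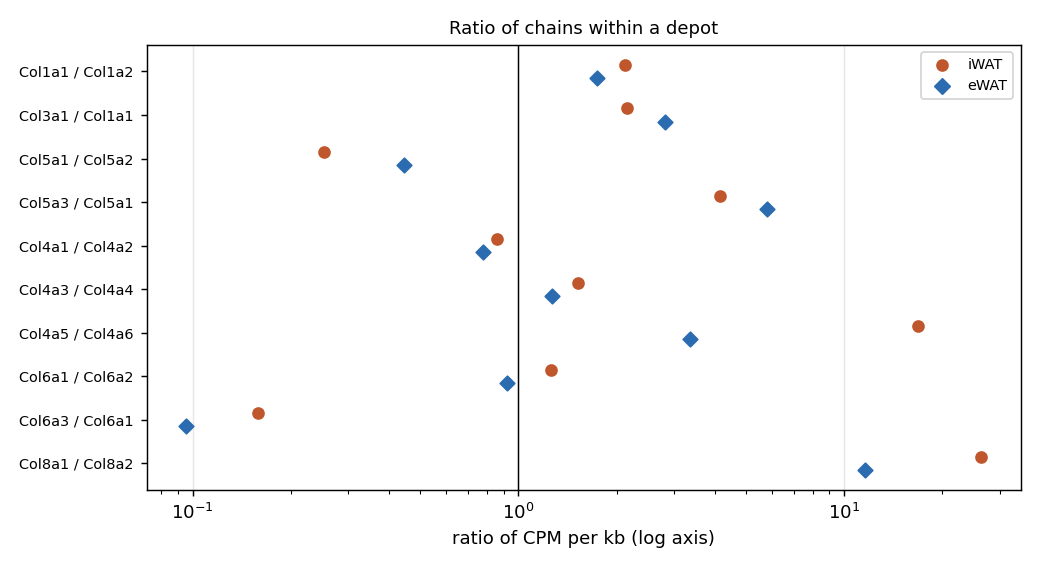
Ratio of chains within a depot, in CPM per kb of coding transcript on a log axis, for iWAT (circles) and eWAT (diamonds). Col4a1 over Col4a2 lies near 1 in both depots (0.859 in iWAT and 0.780 in eWAT), whereas Col4a5 over Col4a6 is 16.8 in iWAT and 3.37 in eWAT; Col6a5 over Col6a3 is left out for scale, and no error can be given.

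Genes that act on collagen were compared in the same way. The enzymes and chaperones that fold and hydroxylate collagen in the endoplasmic reticulum had a median difference of -0.14 over the 20 that passed the filter, and 0 were beyond 2-fold in either direction, against 5.86% and 3.69% of all genes on the iWAT and eWAT sides. Serpinh1, the collagen chaperone, was at 9.84 log2 CPM in iWAT and 10.12 in eWAT. Among 12 processing and cross-linking genes the median was 0.02, and 1 was beyond 2-fold, Pcolce, which enhances procollagen cleavage, at 7.07 in iWAT and 5.92 in eWAT. Lox, which cross-links fibrils, was at 7.27 in iWAT and 6.31 in eWAT. The list split evenly, with 6 genes above 0 and 6 below, and Sparc, its most abundant gene, was at 10.92 in iWAT and 11.42 in eWAT. The 9 fibril-associated proteoglycans had a median of -0.06, with 3 genes above 0 and 6 below. Of these, 1 was beyond 2-fold, Fmod (fibromodulin), at 2.65 in iWAT and 5.17 in eWAT.

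Partners of type IV collagen in the basement membrane had a median difference of -0.35 over 15 genes. Nid2, a nidogen that links laminin and type IV collagen, was at 5.74 log2 CPM in iWAT and 7.17 in eWAT, and Hspg2 (perlecan) at 5.52 and 6.77. The 7 receptors for collagen had a median difference of -0.09, with 3 genes above 0 and 4 below. Of these, 1 was beyond 2-fold, Ddr1, at 4.09 in iWAT and 5.16 in eWAT.

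Markers of the cells that a depot can hold differed in their own right. All 10 adipocyte markers were present in both depots, with a summed level of 39962 CPM in iWAT and 43957 CPM in eWAT and a median difference of -0.06. Of these, Lep (1066 CPM in iWAT and 2142 CPM in eWAT) and Retn (1828 CPM and 3716 CPM) were just beyond 2-fold, higher in eWAT. Fibroblast and adipose progenitor markers, from the cells that make most fibrillar collagen, had a median difference of 0.30 over 12 genes. Pi16 was at 8.27 log2 CPM in iWAT and 6.30 in eWAT, and Dpt at 10.54 and 9.22, whereas Fbn1 was at 5.58 and 6.82. Endothelial markers had a median of -0.21 over 12 genes and smooth muscle and pericyte markers 0.12 over 10, with 0 beyond 2-fold in both lists. Mesothelial markers, for the lining of visceral organs, were lower in iWAT by more than 2-fold in 8 of 8 genes. Their summed level was 4.92 CPM in iWAT and 352 CPM in eWAT, and Upk3b was at -2.40 log2 CPM in iWAT and 7.22 in eWAT.

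B and T cell markers ran the other way. B cell markers were more than 2-fold higher in iWAT in 8 of 8 genes that passed, with a summed level of 235 CPM in iWAT and 12.5 CPM in eWAT. T cell markers were more than 2-fold higher in 9 of 9, with 139 CPM in iWAT and 16.1 CPM in eWAT. Lymph node stroma markers were more than 2-fold higher in iWAT in 4 of 6 genes, while 1, Chst4, was more than 2-fold higher in eWAT (1.43 CPM in iWAT and 6.32 CPM in eWAT). The 4 include Cr2, which was also counted among the B cell markers. Schwann cell markers were more than 2-fold higher in iWAT in 6 of 7 genes that passed. Their summed level did not follow, with 420 CPM in iWAT and 431 CPM in eWAT. Pmp22, the most abundant gene of that list, ran the other way with 286 CPM in iWAT and 400 CPM in eWAT. Macrophage markers had a median of 0.56 over 10 genes, with Trem2 alone beyond 2-fold, higher in eWAT. Chondrocyte, skeletal muscle, mammary and epididymal epithelial lists had 3, 3, 0 and 0 genes that passed. In the chondrocyte list Sox9 had 2.84 CPM in iWAT and 20.0 CPM in eWAT, Comp ran the other way with 1.95 CPM and 0.514 CPM, and Acan, the cartilage proteoglycan, was at or near the minimum in both depots. Medians of these cell type lists ran from -5.48 (mesothelial) to 4.77 (B cell) between the same 2 averages, beside -0.80 for the collagen genes. Adipocyte (-0.06), endothelial (-0.21) and smooth muscle and pericyte (0.12) medians lay near 0. The part of these cell types in the collagen differences was not tested.

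**Figure D5:**
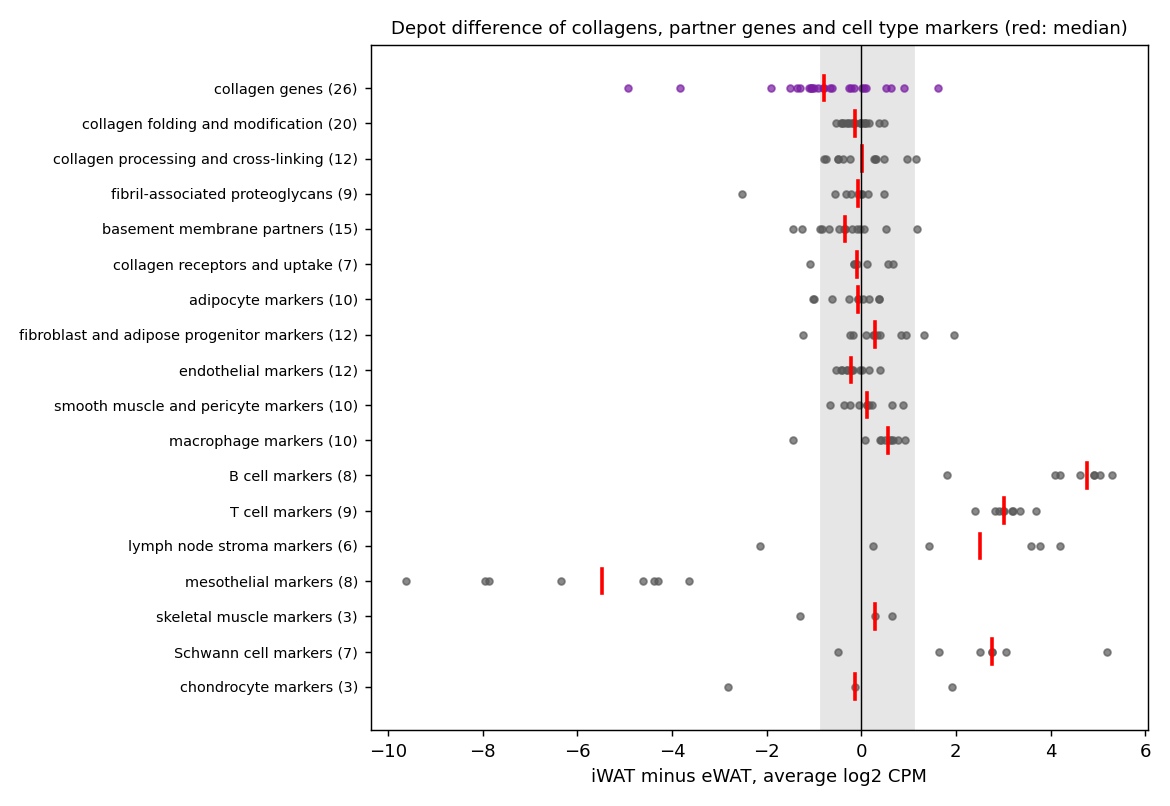
Depot difference (iWAT minus eWAT, average log2 CPM, x axis) of the collagen genes (top row), of their partner genes and of cell type markers, with a red bar at each median, the number of genes that passed the filter in parentheses and the 5th to 95th percentile of all genes in gray. The collagen median is -0.80, the folding list is centered near 0 (-0.14), and the mesothelial (-5.48) and B cell (4.77) lists lie farthest apart; each point is 1 gene without error.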

How the data were processed

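RNA was measured in 12 samples, 3 in each of 4 groups (iWAT GIP, iWAT saline, eWAT GIP, eWAT saline). Per the submitters' processing notes and the study's methods, the authors used Trim Galore 0.6.4 for trimming, Rsubread for alignment (GRCm38), DESeq2 1.32.0 to remove genes of low counts and edgeR 3.34.0; the counting step and annotation are not given in the sources used here. Of the deposited tables, 1 per depot, only the average log2 CPM of each gene was used, the authors' value over a table's libraries on the log2 scale. The tables also hold the authors' comparison of treatments (fold changes, likelihood ratios, p-values, FDR and calls), of which none was used, and 12 columns of per-library values headed by numbers that match no label, which were not used in any step. Depth per sample and its precision are therefore unknown, and the tests planned for the treatments and for their interaction with depot could not be run. The named genes were to be those called, the 3 highest of each broad class, and the chains of their trimers; with no calls, all collagen genes are accounted for, and partner and marker genes were chosen after their values were seen.

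CPM was taken as 2 to the power of the average. The depot difference, its filter (mean log2 CPM of at least 0), the 2-fold limit, the centring and the lengths were chosen after the data were seen. Members, classes and the 19 gene lists (196 entries, with Cr2 in both the B cell and the lymph node stroma list) were chosen with earlier results of these data known. Lengths are of the GENCODE vM21 protein-coding transcript with the longest open reading frame, or the union of exons, which may not be the annotation the authors counted on. The steps were run in Python 3.11.15 with pandas 2.3.3, numpy 2.4.6 and matplotlib 3.10.9. Only the depot difference and the 2-fold count were tried on simulated data, with known shifts set well beyond the 2-fold limit. That trial checks the calculation and not the other steps.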

Additional observations from a re-analysis of the deposited data

How the results depend on the processing

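With a level of at least 0 log2 CPM in place of any reads, 23 collagen genes were counted in iWAT and 26 in eWAT, and with at least 3.3 log2 CPM 14 and 18. The number more than 2-fold higher in iWAT was 0 where both depots had to reach 0 log2 CPM, 3 with no filter, 3 with a fold above 1.5 and 0 with a mean of at least 3.3. The number higher in eWAT was 5 with a mean of at least 3.3, and 8 to 16 under the other 6 alternatives. Shares of all genes were not computed under these alternatives. Centring on the median of all genes, of the progenitor markers or of the adipocyte markers shifted the difference by 0.02, 0.30 and -0.06 and left 11, 14 and 8 genes higher in eWAT and 1 higher in iWAT each. Per kb, the fibrillar share was 73.3% in iWAT and 52.1% in eWAT. Of 11 chain ratios, 3 moved by over 1.5 times with the union of exons; in iWAT the larger chain stayed the larger in all 11. Col6a1 over Col6a2 in eWAT crossed 1, from 0.925 to 1.83 with the union of exons. No paired analysis was possible because the per-library columns carry no replicate number or group. For the same reason the alternatives planned for the treatment comparisons, for CPM scaling and for the mean over samples were not run. No left-out sample could be tried, so how far 1 library sets an average is unknown, and depth, also unknown, limits what can be said of genes under 1 CPM.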
